A study of Mus musculus with 15 samples.

Results

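The mRNA levels of 10 genes of the Notch signalling pathway were followed in stretched mouse podocytes: the receptors Notch1, Notch2 and Notch3, the ligands Jag1 and Jag2, the DNA-binding factor Rbpj, the target genes Hes1, Hey1 and Heyl, and the inhibitor Rita1. The genes were chosen by name, with earlier results of these data known. All 10 were found by Ensembl identifier among the 55416 genes of the count table. Of these, 9 passed the filter on low counts in each comparison, whereas Heyl had 6 counts in all 15 samples together and was not tested. Rbpj was higher and Notch3 lower under low stretch, and none of the 9 tested genes passed under high stretch.

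SVI cells are a conditionally immortalised line of mouse podocytes, the epithelial cells that wrap the capillaries of the kidney glomerulus, so all samples share the background of 1 line. Differentiated cells grew on flexible silicone membranes that were either left at rest or deflected by pressure, a model of glomerular hypertension. Experiment 1 held 6 low-stretch samples (5 to 6 mm of deflection in the sample labels, 6 mm in the design text) and 3 unstretched samples. Experiment 2 held 3 high-stretch samples (7 to 8 mm in the labels, 8 mm in the design text) and 3 unstretched samples. Comparisons were made within an experiment, because amplitude and experiment are the same split and cannot be told apart.

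Notch receptors sit in the cell membrane and are activated by Jagged or Delta-like ligands on a neighbouring cell. Ligand binding lets an ADAM protease and then gamma-secretase cut the receptor, and the freed intracellular domain enters the nucleus, where it joins RBPJ on DNA and turns on genes of the HES and HEY families, which encode repressors. RITA1 binds RBPJ and carries it out of the nucleus, and so damps the pathway. Notch signalling patterns the developing nephron, is low in mature podocytes and has been linked to podocyte injury when it returns.

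Gene counts per sample summed to between 172211836 and 396658285. Unstretched replicate 3 of experiment 2 stood apart from its group, with a score of 32.5 on the first principal component against 121 and 163 for the other samples. In experiment 2 the scores split by depth, the summed counts, across both groups. Unstretched replicates 1 and 2 and high-stretch replicate 2 had 172211836 to 181392067 counts and scores of 121 to 163. Unstretched replicate 3 and high-stretch replicates 1 and 3 had 264475698 to 297641156 counts and scores of 32.5 to 105. Fits without unstretched replicate 3 leave only lower-depth unstretched samples, against high-stretch samples that are mostly deeper. The part of depth was not tested. Of 11 podocyte markers, 6 reached a mean of 1 TPM (transcript abundance per length, scaled to the same total in every sample) in the unstretched samples of each experiment, among them Actn4 and Synpo. Nphs1, a slit diaphragm gene that helps define mature podocytes, had group means of at most 0.114 TPM, and Tcf21, Foxc2 and Ptpro were also near or at 0. The summed level of the 6 endothelial markers was between 0.104 and 0.442 TPM and that of the 4 leukocyte markers between 0.924 and 2.23 TPM in every sample. The labels do not say whether replicates are separate cultures, so p-values measure the spread between these samples, which may be technical.

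Per length, the 10 genes spanned several orders of magnitude in unstretched cells. In experiment 1 the order by mean TPM was Rbpj (54.8 ± 1.87, SD, n = 3), Notch2 (44.0 ± 4.81), Hes1 (40.2 ± 11.6), Jag1 (27.3 ± 1.15), Notch1 (25.7 ± 4.34), Rita1 (9.96 ± 1.01), Notch3 (4.03 ± 0.895), Jag2 (1.57 ± 0.293) and Hey1 (0.153 ± 0.0509). The sample ranges of Notch2 and Hes1 overlapped, as did those of Jag1 and Notch1, and the other neighbours in this order did not overlap. In experiment 2 Hes1 led with 40.2 ± 13.7 TPM (SD, n = 3), and Notch2, Notch1, Rita1 and Rbpj followed with means between 16.8 and 23.8 TPM and overlapping ranges. Notch3 was the lowest of these 3 receptors in all 4 groups, and the target gene Hes1 exceeded Hey1, also a target, in every group. Heyl was listed at 0 TPM in all 6 unstretched samples.

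**Figure D1:**
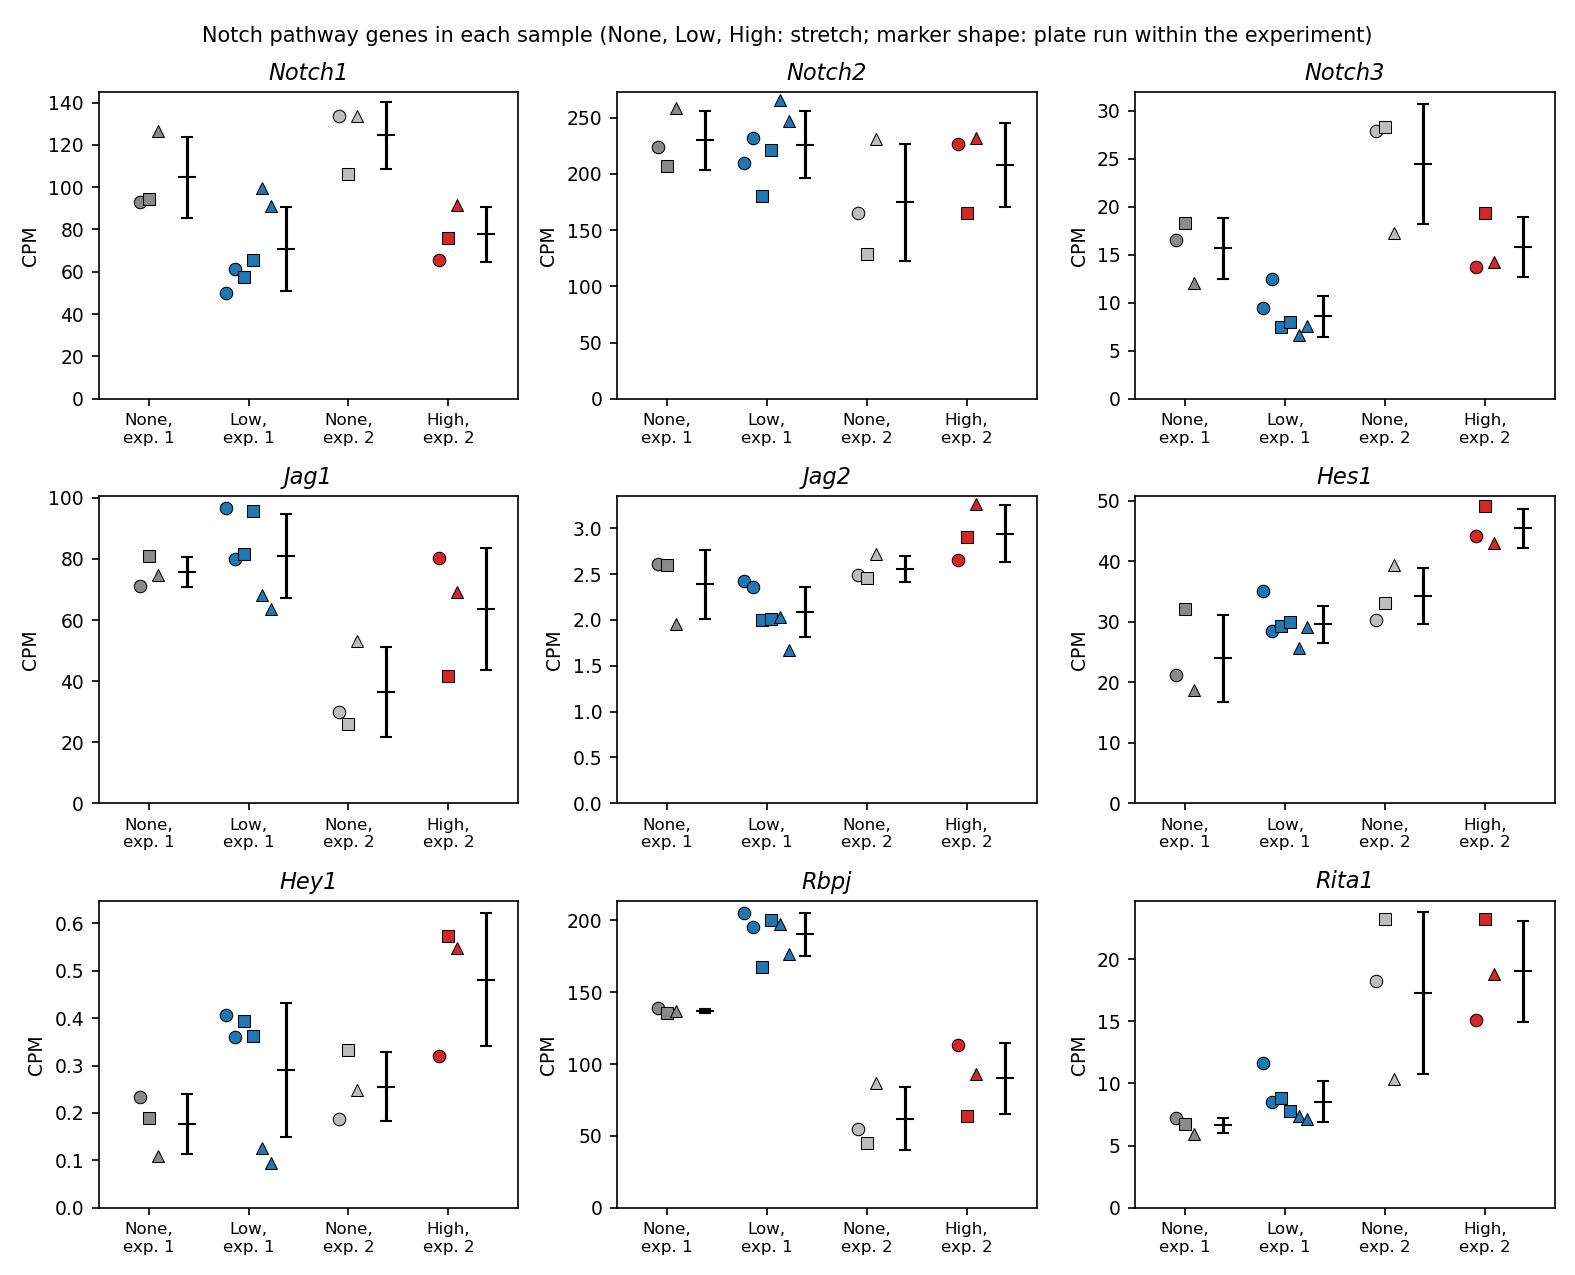
Level of each tested gene in CPM (vertical axis, from 0) in the 4 groups (horizontal axis); points are samples, marker shapes tell the plate runs of an experiment apart, and the bar beside each group is the mean ± SD. Rbpj separates the low-stretch from the unstretched samples of experiment 1 completely (167 to 205 against 136 to 139 CPM), and Notch1 separates the high-stretch from the unstretched samples of experiment 2 (65.7 to 91.5 against 106 to 134 CPM).

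Gene levels are given as CPM, read counts scaled to a common library size by edgeR's TMM factors. Notch3, a receptor best known from mural cells of vessels, fell under low stretch. It was at 16.6, 18.3 and 12.1 CPM in unstretched replicates 1 to 3 of experiment 1 and at a lowest value of 6.62, a median of 7.76 and a highest value of 12.5 CPM in the 6 low-stretch samples. The groups overlapped only between low-stretch replicate 2 and unstretched replicate 3. The log2 ratio of stretched to unstretched cells was -0.87 ± 0.20 (SE; adjusted p 0.0324 by the quasi-likelihood test of edgeR, adjusted over all genes after Benjamini and Hochberg), a level 1.83-fold lower under stretch. This call rested on the set of samples: when each sample was left out in turn, Notch3 passed in 2 of 9 fits, those without low-stretch replicate 2 or 5, and the edgeR adjusted p reached 0.116 without unstretched replicate 1. Nor did it pass with the replicate number as a block (edgeR adjusted p 0.0580).

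In experiment 2 Notch3 was at 27.9, 28.4 and 17.3 CPM in the unstretched and at 13.8, 19.4 and 14.2 CPM in the high-stretch samples. Across both groups the samples of lower depth were at 19.4 to 28.4 CPM and the deeper ones at 13.8 to 17.3 CPM. The value of 17.3 CPM belongs to the unstretched sample that stood apart, and the groups overlapped there. By TPM Notch3 did not overlap, at 3.74 to 4.35 TPM without and 2.23 to 2.76 TPM with high stretch. How many genes do so by TPM was not counted. Its log2 ratio was -0.61 ± 0.25 (SE; edgeR adjusted p 0.302). Without that sample the change was -0.78 and the edgeR adjusted p 0.0432, and without unstretched replicate 2 the change was -0.49.

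Notch1, the receptor with the widest role in tissue development, was lower in every stretched group without passing the test. Unstretched replicates 1 to 3 of experiment 1 had 93.1, 94.2 and 127 CPM, and the low-stretch samples ran from 49.8 over a median of 63.5 to 99.5 CPM. Low-stretch replicate 5, at 99.5 CPM, lay above 2 of the 3 unstretched samples. This gave a log2 ratio of -0.57 ± 0.20 (SE; edgeR adjusted p 0.123). Without low-stretch replicate 5 it was -0.69 (edgeR adjusted p 0.0468), and without unstretched replicate 3 it was -0.42. A block on the plate run gave -0.60, which passed (edgeR adjusted p 0.000490), in a fit that called 28.2% of all genes.

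Under high stretch Notch1 was at 65.7, 75.8 and 91.5 CPM, against 134, 106 and 134 CPM without stretch, and these groups did not overlap. Among all genes tested in that comparison, 10.7% were lower without overlap. edgeR put the log2 ratio at -0.67 ± 0.19 (SE; adjusted p 0.117), whereas DESeq2 gave an adjusted p of 0.0465.

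Notch2, the most abundant receptor, had low-stretch values on both sides of the unstretched ones. It was at 224, 207 and 258 CPM without stretch in experiment 1 and between 179.9 and 266 CPM under low stretch, with a median of 226 CPM. In experiment 2 it was at 165, 128 and 231 CPM without stretch and at 227, 165 and 232 CPM under high stretch. Across both groups the samples of lower depth were at 128 to 165 CPM and the deeper ones at 227 to 232 CPM. The groups overlapped in both experiments, and the log2 ratios were -0.03 (edgeR adjusted p 0.895) and 0.27 (edgeR adjusted p 0.789).

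Jag1 encodes the ligand Jagged 1. In experiment 1 it was at 71.3, 81.1 and 74.6 CPM without stretch and between 63.5 and 96.7 CPM (median 80.9) with low stretch. The unstretched values lay inside the stretched range, and the log2 ratio was 0.09 with an edgeR adjusted p of 0.721. In experiment 2 Jag1 was at 30.0, 26.1 and 53.2 CPM without stretch and at 80.2, 41.6 and 69.3 CPM with high stretch. Across both groups the samples of lower depth were at 26.1 to 41.6 CPM and the deeper ones at 53.2 to 80.2 CPM. The high-stretch samples exceeded the unstretched ones except that high-stretch replicate 2 lay below unstretched replicate 3, the sample that stood apart. Its log2 ratio was 0.82 ± 0.35 (SE; edgeR adjusted p 0.326). Without that sample it was 1.24 with an edgeR adjusted p of 0.0202, and without high-stretch replicate 1 it was 0.60. With samples blocked by replicate number, which is also the plate run there, it was 0.84 with an edgeR adjusted p of 0.0159. Jag2, a related ligand, stayed between 1.68 and 3.27 CPM in all 15 samples, and the log2 ratios were -0.20 (edgeR adjusted p 0.456) and 0.22 (edgeR adjusted p 0.779).

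Rbpj, the factor that brings the cleaved receptor to DNA, rose under low stretch. The unstretched replicates 1 to 3 of experiment 1 had 139, 136 and 137 CPM, and the low-stretch samples ran from 167 over a median of 196 to 205 CPM. In CPM every low-stretch sample lay above every unstretched one, as was the case for 7.81% of all genes tested. By TPM the groups overlapped, with low-stretch replicate 3 at 55.9 TPM and unstretched replicate 1 at 56.9 TPM. The log2 ratio was 0.47 ± 0.08 (SE; edgeR adjusted p 0.00930), or 1.38-fold. Rbpj passed in 8 of the 9 fits that left out a sample, and without unstretched replicate 3 the edgeR adjusted p was 0.0577. Nor did Rbpj pass in the fit of all 15 samples (edgeR adjusted p 0.226). With the replicate number as a block its edgeR adjusted p was 0.0997. That block leaves out part of the low-stretch samples, and same-numbered samples were not taken as pairs. It therefore cannot decide whether the call holds.

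In experiment 2 Rbpj was at 55.0, 44.9 and 86.5 CPM without stretch and at 113, 64.2 and 93.0 CPM with high stretch. Across both groups the samples of lower depth were at 44.9 to 64.2 CPM and the deeper ones at 86.5 to 113 CPM. The unstretched replicate 3 again lay within the stretched range. The log2 ratio was 0.56 ± 0.31 (SE; edgeR adjusted p 0.508), and 0.91 without that replicate (edgeR adjusted p 0.0509). Without high-stretch replicate 1 it was 0.34.

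The Rbpj count is uncertain, because the annotation holds a processed pseudogene, Rbpj-ps3, and reads may be shared between such a copy and its parent gene. Rbpj-ps3 had 21.6 ± 0.141 CPM (SD, n = 3) without and 30.0 ± 1.81 CPM (SD, n = 6) with low stretch, a log2 ratio of 0.47 with an edgeR adjusted p of 0.00662. At the level of transcripts, Rbpj-203 carried most of the gene, with 58.6% ± 4.88 (SD, n = 3) of its TPM without and 64.3% ± 7.95 (SD, n = 6) with low stretch. limma on log2(TPM + 0.1) called the minor protein-coding transcripts Rbpj-201 (0.96 higher, adjusted p 0.0403) and Rbpj-207 (0.75 higher, adjusted p 0.0379) under low stretch, while Rbpj-203 differed by 0.47 with a limma adjusted p of 0.214. The share of the gene taken by Rbpj-203 differed by 0.36 on the log2 ratio scale with a limma adjusted p of 0.705.

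Promoter windows (250 bases before to 50 after a start) were given by RefSeq on GRCm38.p6 for 7 of the 10 genes, in 8 windows, and not for Hes1, Hey1 and Heyl. The core of the RBPJ binding motif, TGGGAA, was searched on both strands. It was found in 2 of the 8 windows, a share near the 25.6% of all 32851 windows that hold it. Both belong to Rbpj and overlap. The window with 2 matches, as 3.79% of all windows have, is shown by the 110 bases around them, because Rbpj is the member whose level rose. They lie on the plus strand at chr5:53590186-53590295, and capitals mark the motif on either strand, at 149 and 65 bases before the start.
Rbpj: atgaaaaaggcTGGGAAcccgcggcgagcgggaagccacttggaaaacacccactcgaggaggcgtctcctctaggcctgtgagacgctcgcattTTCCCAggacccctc
A match describes these letters and does not show binding.

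None of the target genes passed the test in either experiment. Hes1, the repressor most often used as a readout of Notch activity, was at 21.1, 32.1 and 18.6 CPM without stretch in experiment 1 and between 25.6 and 35.0 CPM (median 29.2) under low stretch. Unstretched replicate 2 lay above 5 of the 6 stretched samples. This gave a log2 ratio of 0.29 ± 0.17 (SE; edgeR adjusted p 0.311). Without that replicate it was 0.58 (edgeR adjusted p 0.0352), and without unstretched replicate 3 it was 0.13. Under high stretch Hes1 was at 44.2, 49.1 and 43.0 CPM, against 30.3, 33.0 and 39.4 CPM without stretch. In CPM the groups did not overlap, as for the 9.97% of all genes that were higher without overlap. By TPM they overlapped, with unstretched replicate 3 at 56.1 TPM, above every high-stretch sample (44.4 to 50.8 TPM). edgeR put the log2 ratio at 0.42 ± 0.18 (SE; adjusted p 0.330).

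Hey1, a repressor of the related HEY family, was measured at 0.0940 to 0.574 CPM in all 15 samples, with 1186 counts over all of them. Its group means were 0.177 ± 0.0634 CPM (SD, n = 3) without and 0.290 ± 0.141 CPM (SD, n = 6) with low stretch. In experiment 2 they were 0.256 ± 0.0736 CPM (SD, n = 3) without and 0.481 ± 0.140 CPM (SD, n = 3) with high stretch. Low-stretch replicates 5 and 6 were the lowest of their group, at 0.125 and 0.0940 CPM, and unstretched replicate 3, of the same plate run, was the lowest of its own at 0.108 CPM. Its log2 ratio was 0.70 ± 0.48 (SE; edgeR adjusted p 0.404) under low and 0.92 ± 0.35 (SE; edgeR adjusted p 0.261) under high stretch. Heyl had no count in 11 of 15 samples, and a count of 0 allows up to between 0.00885 and 0.0213 CPM at these depths, counting error only.

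Rita1, the inhibitor, was at 7.18, 6.76 and 5.92 CPM in the unstretched samples of experiment 1. In the low-stretch samples it ran from 7.11 over a median of 8.13 to 11.6 CPM. Only low-stretch replicate 6, at 7.11 CPM, lay below an unstretched sample. Its log2 ratio was 0.36 ± 0.16 (SE; edgeR adjusted p 0.199). In experiment 2 it was at 18.2, 23.3 and 10.3 CPM without stretch and at 15.1, 23.2 and 18.8 CPM with high stretch, a log2 ratio of 0.16 with an edgeR adjusted p of 0.913. The groups overlapped, and without unstretched replicate 3 the change was -0.07, so its direction rested on that sample.

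**Figure D2:**
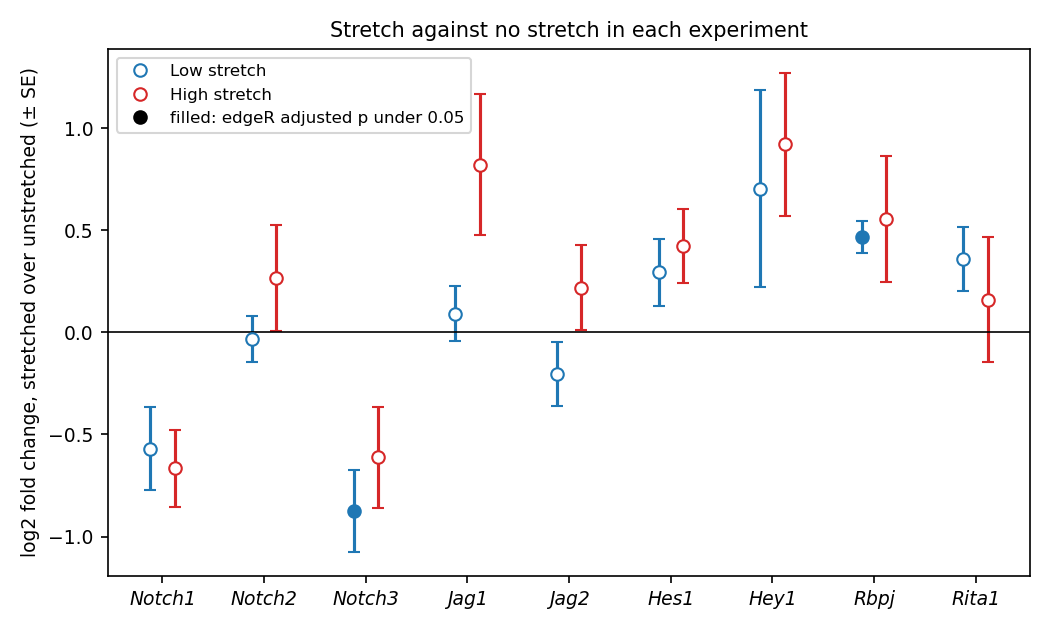
Log2 ratio (vertical axis, stretched over unstretched, ± standard error) of the 9 tested genes under low (blue) and high (red) stretch; filled points have an edgeR adjusted p under 0.05. Notch3 and Rbpj under low stretch are the filled points, and Notch1 and Notch3 lie below 0 in both comparisons.

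Counted together, 2 of the 9 tested genes passed under low stretch, where 5.45% of all 21672 genes tested passed in edgeR. One of them was higher, as 1.85% of all genes were, and the other lower, as 3.6% were. The median log2 ratio of the 9 genes was 0.09, against 0.01 over all genes tested. Under high stretch 0 of 9 passed in edgeR, where 3.47% of all 18524 genes passed. DESeq2 called 1 of the 9, Notch1, and 5 of them (Notch1, Notch3, Jag1, Hes1 and Hey1) had an unadjusted edgeR p under 0.05, as 14.6% of all genes did. The median was 0.27, against -0.02 over all genes.

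A fit of all 15 samples tested whether the effect of stretch differed between the experiments. None of the 9 genes passed in edgeR, where 0% of 22015 genes did, and DESeq2 also called 0 genes. An unadjusted edgeR p under 0.05 was found for 547 genes (2.48%), none of them among the 9. The largest difference belonged to Jag1, at 0.71 ± 0.34 (log2, SE) more under high stretch, an unadjusted edgeR p of 0.0552 and an adjusted p of 1.0. For Notch3 the difference was 0.23 with a standard error of 0.33, and for Rbpj 0.06 with a standard error of 0.28, both with an edgeR adjusted p of 1.0. The data therefore do not show that any of the genes moved differently in the 2 experiments, nor that they moved alike.

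The codes in the sample descriptions read as plate positions in a series without gaps, and the labels mark no runs in it. Runs were set here by treatment, each starting at an unstretched sample and ending before the next one. Each holds 1 unstretched sample and 2 low-stretch samples or 1 high-stretch sample. A stretched sample can therefore also lie beside the unstretched sample of the next run, as low-stretch replicate 2 does. The labels do not say what the plate was. Against the unstretched sample of its own run, Notch1 was lower in all 9 stretched samples, by 0.35 to 0.90 on the log2 scale under low and by 0.48 to 1.03 under high stretch. Notch3 was lower in all 9 as well, by 0.41 to 1.30 and by 0.28 to 1.02. Of all genes, 12.4% were lower in all 9. Rbpj was higher in all 9, with log2 differences of 0.30 to 0.56 and of 0.10 to 1.04, and 10.8% of all genes were higher in all 9. Hey1 was higher in 8 of 9, and Jag1, Hes1 and Rita1 each in 7 of 9.

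**Figure D3:**
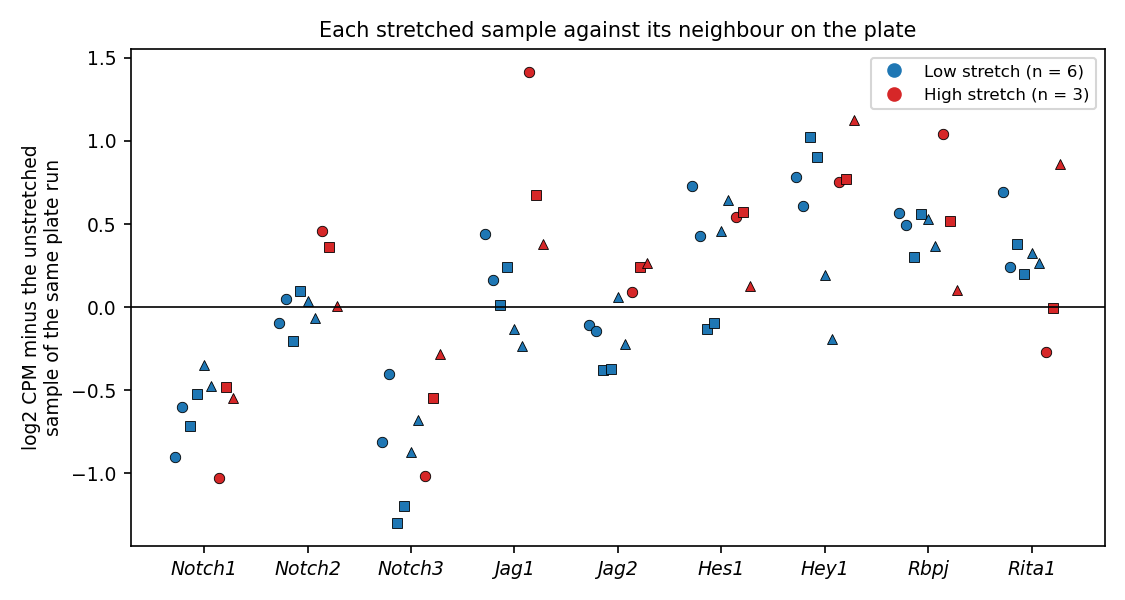
Log2 CPM of each stretched sample minus that of the unstretched sample of its plate run (vertical axis) for the 9 tested genes (horizontal axis); blue points are low-stretch samples, red points high-stretch samples, and the marker shape gives the run. All 9 points of Notch1 and Notch3 lie below 0 and all 9 points of Rbpj lie above 0.

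With the plate run as a block, 5 of the 9 genes passed under low stretch, where 28.2% of all genes passed in edgeR with that block. Notch1 was then lower by 0.60 (standard error 0.08, edgeR adjusted p 0.000490) and Notch3 by 0.89 (edgeR adjusted p 0.000620). Rbpj, Rita1 and Hey1 were higher by 0.47, 0.35 and 0.61, with edgeR adjusted p-values of 0.000587, 0.0270 and 0.0432. Under high stretch the block called Jag1 alone, where 8.35% of all genes passed. Samples of 1 run deviated together in experiment 1, with correlations across genes, which are not independent replicates, of 0.328 to 0.570. In experiment 2 the correlations within a run were of both signs, from -0.163 to 0.450.

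Markers of podocytes and of other kidney cells differed between the groups as well. The summed level of the 11 podocyte markers was 627 to 691 TPM without and 641 to 816 TPM with low stretch, and 719.8 to 756 against 875 to 898 TPM in experiment 2. Actn4 and Synpo made up most of this sum. Podxl, the main sialomucin of the podocyte surface, had means of 61.1 without and 41.7 TPM with low stretch, and of 47.0 and 34.4 TPM in experiment 2. For Wt1, a transcription factor of podocytes, the means were 5.55 and 2.42 TPM in experiment 1 and 2.29 and 0.362 TPM in experiment 2, so both had lower means with stretch. The unstretched mean of Wt1 in experiment 2 leaned on replicate 3, at 4.75 TPM against 1.22 and 0.908 TPM. Cd2ap had means of 40.1 without and 42.7 TPM with low stretch, and of 6.32 and 4.51 TPM in experiment 2. The summed level of the 4 proximal tubule markers was 166 to 352 TPM in the unstretched and 56.4 to 134 TPM in the low-stretch samples, and 253 to 428 against 43.9 to 66.2 TPM in experiment 2. Lrp2 and Aqp1 made up nearly all of it, while Slc34a1 was near or at 0. Cubn, the remaining marker, went the other way. Its means were 0.976 with against 0.868 TPM without low stretch, and 0.367 against 0.314 TPM in experiment 2. For the 6 mesangial and smooth muscle markers the sums were 1438 to 2341 against 1721 to 4118 TPM in experiment 1 and 2621 to 4926 against 5645 to 7654 TPM in experiment 2. Acta2 gave most of this sum, and Ren1 was at 0 in every group. Pdgfrb, a growth factor receptor of mesangial cells and pericytes, had lower means with stretch, at 19.6 against 31.2 TPM in experiment 1 and at 23.3 against 33.3 TPM in experiment 2. The mean of Des, which encodes desmin, was also lower with stretch, at 0.217 against 0.447 TPM and at 0.570 against 2.62 TPM. The part of these markers in the values of Notch3, Notch1 and Rbpj was not tested. In bulk RNA a change in the number of cells of a type cannot be told apart from a change in RNA per cell.

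Rita1 was then resolved into its transcripts, because the deposited transcript table lists one of them, Rita1-204 (ENSMUST00000140554), at 0 in every unstretched sample of experiment 1. Rita1-201 made up most of the gene in every group, between 71.0% ± 1.49 (SD, n = 3) without stretch in experiment 1 and 76.7% ± 0.766 (SD, n = 3) under high stretch. Rita1-204 was at 0, 0 and 0 TPM without stretch in experiment 1 and between 0.958 TPM (replicate 2) and 1.497 TPM (replicate 1) in the 6 low-stretch samples. In experiment 2 it was at 2.56, 2.57 and 2.14 TPM without and at 1.59, 2.59 and 1.65 TPM with high stretch. Rita1-204, which is contained whole in another Rita1 model, was thus listed above 0 in every sample but the 3 unstretched ones of experiment 1.

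Rita1-207 (ENSMUST00000177800) showed the reverse. It was at 1.00, 1.06 and 1.02 TPM in the unstretched samples of experiment 1 and at 0 to 0.0602 TPM under low stretch. In experiment 2 it was at 0.106, 0.0457 and 0.168 TPM without and at 0.0878, 0.186 and 0.315 TPM with high stretch.

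The sequences of both models were compared, because they decide how reads can be divided between them. In GENCODE M21, Rita1-204 is 796 bases long and is contained whole in Rita1-207, which is 1668 bases long and starts 19 bases earlier. Neither has a stretch of 31 bases that is absent from the other 6 Rita1 models. Both hold an exon of 95 bases, outside the coding sequence, that no other Rita1 model has. Rita1-207 and Rita1-201 share the same 759 coding bases, whereas the Rita1-204 model stops after 321 of them. Its last codon is AGC and not a stop codon, so its coding sequence has no annotated end. The end of the Rita1-204 model is shown with the same place in the other two models, with the last 60 bases of Rita1-204 in capitals and the bases that follow in the longer models in lower case.
Rita1-204: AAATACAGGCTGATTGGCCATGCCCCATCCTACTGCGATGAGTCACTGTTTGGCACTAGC
Rita1-207: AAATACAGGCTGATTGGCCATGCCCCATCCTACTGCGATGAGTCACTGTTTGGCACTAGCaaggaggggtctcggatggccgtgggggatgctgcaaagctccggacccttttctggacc
Rita1-201: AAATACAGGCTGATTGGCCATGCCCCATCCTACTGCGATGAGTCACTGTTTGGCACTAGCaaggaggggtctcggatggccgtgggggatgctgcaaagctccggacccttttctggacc
The 3 models are identical over the capitals, and Rita1-207 and Rita1-201 go on together where Rita1-204 stops.

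**Figure D4:**
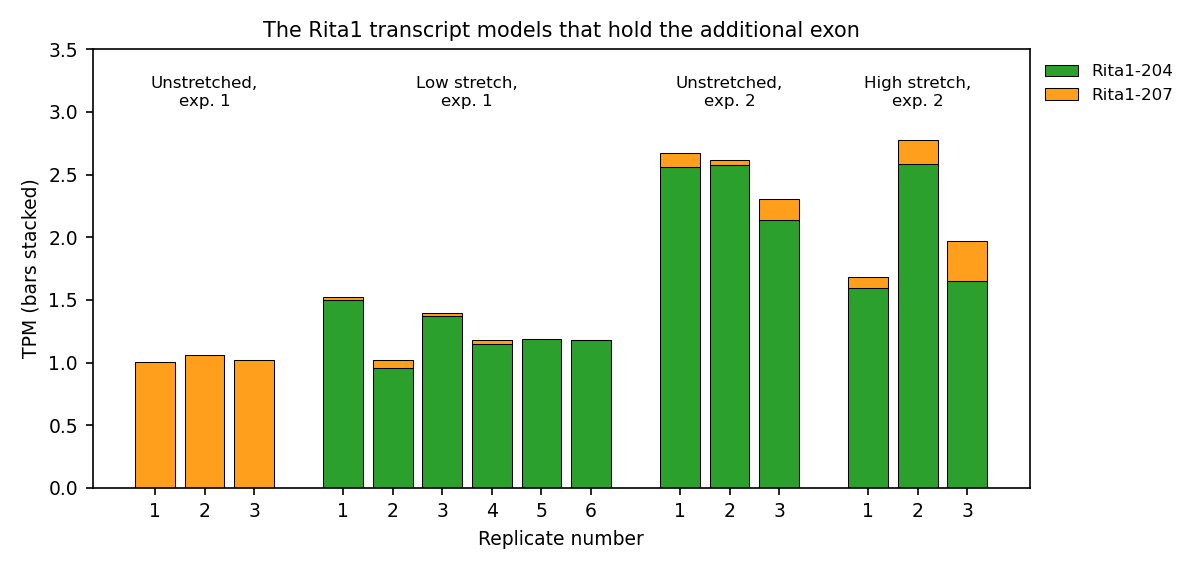
TPM of Rita1-204 (green) and Rita1-207 (orange), stacked (vertical axis, from 0), in each sample by group and replicate number (horizontal axis). The unstretched samples of experiment 1 are listed with Rita1-207 and with 0 for Rita1-204, the low-stretch samples are listed almost only with Rita1-204, and the stacked heights are 1.00 to 1.06 and 1.02 to 1.52 TPM.

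Tested one by one, both transcripts were called between the groups of experiment 1. Usage was taken as the log2 of a transcript's TPM over the TPM of the rest of its gene, with 0.1 TPM added to each. In limma it was higher by 3.53 for Rita1-204 under low stretch (adjusted p 0.000105), where 0.0144% of 27720 transcripts passed. On log2(TPM + 0.1), which understates changes of low transcripts, limma gave 3.71 for Rita1-204 (adjusted p 6.53e-05) and -3.18 for Rita1-207 (adjusted p 0.000561), where 0.658% of 63329 transcripts passed. Of the transcripts of all 10 genes, these and the 2 minor Rbpj transcripts passed that test of level. Rita1 was resolved because Rita1-204 is listed at 0 in these unstretched samples. The tests of Rita1-204 therefore describe that pattern and give no independent support.

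As a sum, the 2 models with the additional exon did not pass. Rita1-204 plus Rita1-207 came to 10.4% ± 1.13 (SD, n = 3) of Rita1 without and to 10.01% ± 1.35 (SD, n = 6) with low stretch. The ranges, 9.22% to 11.5% and 7.91% to 11.5%, overlapped over most of their width. Usage of the sum differed by -0.08 on the log2 ratio scale with a standard error of 0.15 and a limma adjusted p of 0.883. Its level differed by 0.25 with a standard error of 0.15 and a limma adjusted p of 0.428. The summed model was introduced after the data had been seen.

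In experiment 2 the sum was 14.5% ± 1.96 (SD, n = 3) of Rita1 without and 11.5% ± 1.87 (SD, n = 3) with high stretch, and the ranges overlapped. Usage of Rita1-204 differed by -0.46 with a limma adjusted p of 0.654, and usage of the sum by -0.38 with a standard error of 0.21 and a limma adjusted p of 0.709. In that comparison limma called 0% of 23408 transcripts for usage, with 1881 (8.04%) at an unadjusted p under 0.05, and 0.485% of 53042 for level, none of them from the 10 genes. The difference between the usage effects of the 2 experiments was -3.99 for Rita1-204, with a standard error of 0.27 and a limma adjusted p of 2.37e-05, where 0.0339% of 26551 transcripts passed. For the sum it was -0.29, with a limma adjusted p of 0.998.

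Among all 140789 transcripts, Rita1-204 was the 1 transcript listed at 0 in the 3 unstretched samples of experiment 1 and above 0.5 TPM in each of the other 12 samples. That is the pattern for which Rita1 was resolved, so the count is a description and no test. Counted the same way, 5 transcripts were at 0 in the unstretched group of experiment 2 alone, 2 in the high-stretch group and 0 in the 6 low-stretch samples. Blocked by replicate number, a fit without low-stretch replicates 4 to 6, usage of Rita1-204 was higher by 3.42 with a limma adjusted p of 0.355.

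The other Rita1 transcripts varied less. Rita1-206 had 0.404 ± 0.212 TPM (SD, n = 3) without and 0.664 ± 0.166 TPM (SD, n = 6) with low stretch, and a limma adjusted p of 0.266 for its level. Rita1-203, a non-coding processed transcript, had 0.375 ± 0.210 and 0.672 ± 0.321 TPM (limma adjusted p 0.370), and under high stretch 0.119 ± 0.178 TPM against 0.412 ± 0.246 TPM (SD, n = 3 each; limma adjusted p 0.592). Rita1-202 and Rita1-205 had group means of 0.422 to 0.588 TPM, and limma adjusted p-values for level of 0.741 and 0.664 with low stretch, and 0.963 and 0.967 with high stretch.

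The wider pathway was read from 50 further genes. Under low stretch 45 were tested, 0 rose and 1 fell in edgeR, where 5.45% of all genes passed, and their median log2 ratio was -0.03. Under high stretch 44 were tested and 0 passed in edgeR, against 3.47% of all genes, with a median of -0.05. The gene that fell was Aph1c, a subunit of gamma-secretase, from 5.37 ± 0.480 CPM (SD, n = 3) to 3.59 ± 0.571 CPM (SD, n = 6), a log2 ratio of -0.59 ± 0.14 (SE; edgeR adjusted p 0.0398). Aph1b, a close paralog whose reads may be shared with it, differed by -0.25 with an edgeR adjusted p of 0.156, so the count of Aph1c is uncertain. Under high stretch Aph1c was at 4.19 ± 0.710 CPM against 6.32 ± 0.304 CPM (SD, n = 3 each), with a log2 ratio of -0.58 and an edgeR adjusted p of 0.246. Dll3, Dlk1, Hes2, Hes5 and Nrarp were too low to be tested, as was Mfng in experiment 2.

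The genes whose pattern was most like that of Rita1, Notch3 and Rbpj were found by Pearson correlation of log2 CPM over the 15 samples, after the mean of each experiment was subtracted, among 12934 genes. Samples of 1 group and plate run share their treatment and position, so these values describe the libraries and carry no test. For Notch3 they were Krt7 (0.925), a keratin of simple epithelia, Slc2a9 (0.900), a urate transporter, and Galnt14 (0.899), an enzyme of O-glycosylation. For Rbpj they were its pseudogene Rbpj-ps3 (0.993), Patl1 (0.983), a factor of mRNA decapping, and Atp11a (0.981), a lipid flippase. For Rita1 they were Shf (0.978), Osbpl5 (0.976), a lipid transfer protein, and Vps37c (0.975), a subunit of the ESCRT machinery.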

How the data were processed

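The authors deposited a table of whole-number read counts per gene and a table of transcript TPM, in which all values of a sample sum to a fixed total and depth is lost. The submitters' processing notes name STAR 2.7.5c, featureCounts, Subread 2.0.0, Salmon 1.9.0, DESeq2 1.38.3 and the build mm39. The strand setting and the transcript index are not given in the sources used here. Libraries were stranded poly(A) libraries read as pairs, per the labels' protocols. Symbols and transcript models came from GENCODE M21, on another build (GRCm38), so gene coordinates were left out. It matched 52083 genes and 137189 of 140789 transcripts.

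The count test was the quasi-likelihood F test of edgeR 4.0.16, run in R 4.3.3 after TMM scaling and filterByExpr, with Benjamini-Hochberg adjustment over all genes and a threshold of 0.05. The standard error is the size of the log2 fold change divided by the square root of F. TPM were tested with limma 3.58.1 (eBayes with a trend) with 0.1 TPM added. Usage covered transcripts with a mean fraction of 0.05 to 0.95 in genes with a mean of at least 1 TPM, and level covered those with a mean TPM of 0.1 or more. The tests were tested on simulated data.

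The members and the pathway and marker lists were chosen with earlier results of these data known. One podocyte marker is not reported here. Named genes were all 10 members, every other pathway gene that passed, every Rita1 transcript with a mean of at least 0.1 TPM in a group, the main transcript of each other member, transcripts of members that passed, and the 3 genes most like Rita1 and each member that passed. Groups and replicate numbers came from the sample titles. Same-numbered samples had correlations across genes of -0.440 to 0.365 in experiment 1 and of -0.163 to 0.450 in experiment 2, so the numbers were not taken as pairs. Alternatives were DESeq2 1.42.0, RLE size factors, other filters and pseudocounts, blocks on replicate number or plate run, all 15 samples in 1 fit, and each sample left out. The sum of Rita1-204 and Rita1-207 and the difference between usage effects were added after the data were seen.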

Additional observations from a re-analysis of the deposited data

Results flagged for a closer look

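Rita1 in low-stretch replicate 1, at 11.6 CPM, lay far from the other 5 low-stretch samples, which were at 7.11 to 8.79 CPM. The gap to the nearest sample was 0.628 of the range of the group, just above Dixon's critical value at the 95% level. Chance gives about 5% of groups such a value, and 26 groups of values were looked at. Without that sample the log2 ratio of Rita1 under low stretch was 0.26, against 0.36 with it, and neither passed in edgeR.

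The effect of stretch on usage of Rita1-204 differed between the experiments by -3.99 on the log2 ratio scale in limma. Usage was higher with low stretch in experiment 1, where unstretched samples are listed at 0, and not called in experiment 2, where unstretched samples had 2.14 to 2.57 TPM. Summed with Rita1-207, the model that contains it whole, the difference was -0.29 and did not pass.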

How the results depend on the processing

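Of the calls on members, those of Rbpj and Notch3 under low stretch stayed past the threshold with DESeq2, RLE size factors, no filter, a mean count of at least 100 and the plate run block; with all 15 samples in 1 fit Notch3 passed and Rbpj had an edgeR adjusted p of 0.226. The replicate block drops low-stretch replicates 4 to 6 and groups samples by a number that was not taken to mark pairs. It gave edgeR adjusted p-values of 0.0580 for Notch3 and 0.0997 for Rbpj, and 0.0314 for Notch1 at -0.89. For that reason these values cannot decide whether the calls hold. The cause of these and the following changes was not tested, beyond the smaller number of samples in fits that leave some out.

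Genes called under low stretch numbered 2837 with DESeq2, 490 with the replicate block, 6106 with the plate run block and 640 with all 15 samples in 1 fit, against 1181. Members called were 1 with the replicate block, 5 with the plate run block and 1 with all 15 samples. Under high stretch 1403 genes were called with DESeq2 (1 member), 1050 with no filter, 414 at a mean count of at least 100, 1546 with the replicate block or the plate run block (1 member each) and 1488 with all 15 samples, against 643. For the difference between the stretch effects the plate run block called 3 genes, and the replicate block turned the differences of Notch1 to 0.21 and of Hey1 to -0.26. Leaving out a sample gave 220 (without unstretched replicate 3) to 1630 genes and 0 to 3 members under low stretch, with Notch2 between -0.088 and 0.051. Under high stretch it gave 14 (without high-stretch replicate 3) to 1421 genes (without unstretched replicate 3) and 0 to 2 members, with Rita1 between -0.075 and 0.44. The differences between the effects then ranged from -0.28 to 0.0069 for Notch1, -0.17 to 0.28 for Hes1, -0.045 to 0.45 for Hey1, -0.14 to 0.45 for Rbpj and -0.42 to 0.047 for Rita1.

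Transcripts called for usage under low stretch were 0 with the replicate block (0 of members), 37 with the plate run block, 1 and 75 with pseudocounts of 0.01 and 1 TPM, 91 with no filter (2 of members) and 0 with Rita1-204 and Rita1-207 summed (0 of members), against 4. The sum turned the usage difference of Rita1-204 to -0.084, and the replicate block turned that of Jag2-201 to -0.0093. Leaving out a sample gave 1 to 8 transcripts, with Jag1-201 between -0.075 and 0.31 and Jag2-201 between -0.0065 and 0.33. Under high stretch 3 transcripts were called with a pseudocount of 1 TPM, 7 with no filter, 242 with all 15 samples and 0 to 10 with a sample left out, against 0. The difference between usage effects was called for 0 transcripts with the replicate block (0 of members), 0 members with the sum, and 3 to 107 transcripts (1 to 2 of members) with a sample left out, against 9.

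For level under low stretch the counts were 0 with the replicate block (0 of members), 5587 with the plate run block, 253 and 712 with pseudocounts of 0.01 and 1 TPM, and 16 to 492 (2 to 4 of members) with a sample left out, against 417; all 15 samples and the sum each left 2 member transcripts. Jag1-201 was at 0.057 with the replicate block and between -0.091 and 0.022 with a sample left out. Under high stretch they were 2 with the replicate block or the plate run block, 0 with no filter, 1335 with all 15 samples and 0 to 339 (0 to 1 of members) with a sample left out, against 257. The ranges there were -0.021 to 0.39 for Rita1-202, -0.61 to 0.025 for Rita1-205, -0.0081 to 0.28 for Rita1-201, -0.14 to 0.59 for Notch2-201 and -0.054 to 0.25 for Jag2-201. By Spearman correlation, 1 of the 3 genes named as most like Notch3, 1 of those for Rbpj and 0 of those for Rita1 stayed among the first 3. Depth limits Hey1 and Heyl most, and TPM values carry no depth.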

Other observations

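With the plate run as a block, 6 of the 50 other pathway genes were higher and 9 lower under low stretch in edgeR, where 28.2% of all genes passed. Of the ligands, Dll4 was higher by 0.99 on the log2 scale (edgeR adjusted p 0.00416) and Dll1 lower by 0.27 (edgeR adjusted p 0.0308). Among the fringe enzymes, which add sugars to the receptors, Lfng was higher by 0.50 (edgeR adjusted p 0.00260) and Rfng lower by 0.26 (edgeR adjusted p 0.00671). Of the gamma-secretase subunits, Aph1a, Aph1b and Aph1c were lower by 0.26, 0.25 and 0.60 and Psenen was higher by 0.26, with edgeR adjusted p-values of 0.0114, 0.00535, 0.000932 and 0.0150. Without the block, the edgeR adjusted p-values of Dll4, Lfng and Rfng were 0.202, 0.271 and 0.0565. The genes of this paragraph were picked after their values were seen.

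Under high stretch, Dll4 and Lfng were higher in CPM than in every unstretched sample of experiment 2, as were 9.97% of all genes tested. By TPM Dll4 overlapped, with high-stretch replicate 2 at 0.0776 TPM and unstretched replicate 3 at 0.0902 TPM. The log2 ratio was 0.89 for Dll4 (edgeR adjusted p 0.208) and 0.65 for Lfng (edgeR adjusted p 0.190).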
